A study of Mus musculus with 52 samples.

Results

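The genes described here are 39 of the 57010 genes in the count table, chosen by symbol as a list of erythroid differentiation, heme and haemoglobin genes. They fall into 8 groups by role: 4 globin chains (Hba-a1, Hba-a2, Hbb-bs, Hbb-bt), 6 enzymes of heme synthesis (Alas2, Urod, Uros, Cpox, Ppox, Fech), 4 genes of iron and mitochondrial import (Slc25a37, Slc25a38, Tfrc, Tfr2), the erythropoietin receptor Epor with 4 transcription factors (Gata1, Klf1, Tal1, Nfe2), band 3 with its membrane skeleton (Slc4a1, Epb41, Epb42, Ank1, Sptb), blood group and surface proteins (Rhag, Rhd, Ermap, Kel, Aqp1), the carbonic anhydrases Car1 and Car2 with Bpgm, and 7 genes of terminal maturation (Trim10, Trim58, Tspo2, Tmcc2, Xpo7, Mkrn1, Bnip3l). Red cells arise from erythroid precursors under erythropoietin, GATA1, TAL1 and KLF1, fill with haemoglobin as heme is made from glycine, succinyl-CoA and iron, build a spectrin skeleton under the membrane, and then lose their nucleus and, as reticulocytes, their mitochondria and ribosomes. Reticulocytes still carry messenger RNA, mature red cells very little, so globin transcripts in whole blood come mostly from the youngest red cells. In tumor and lymph node the same transcripts can come from blood in the vessels. Tfrc, the transferrin receptor through which cells take up iron, is also made by dividing cells of any kind, and several heme enzymes are made by other cells too.

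The RNA came from hCD40tg mice, which carry human CD40, bearing MC38-CEACAM5 tumors, a mouse colon carcinoma line that expresses the human tumor antigen CEACAM5. Treatment was vehicle, the CD40 antibody labelled CD40 mAb, or ATOR-4066, a bispecific antibody that binds CD40 and CEACAM5, so all groups share the transgene and the tumor. Age, sex, strain, dose and time are not given in the labels used here. Polyadenylated RNA was sequenced from blood (5 vehicle, 5 CD40 mAb, 4 ATOR-4066), whole tumor (4, 5 and 4 used), CD45+Ly6G- cells sorted from tumors (4, 3 and 3) and lymph node (4, 4 and 5 used), so that in the sorted cells Ly6G+ neutrophils and CD45- cells had been gated out. The samples are numbered in their titles, and the labels do not say what a number stands for, so the p-values measure the spread between these samples.

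Totals over the libraries used ran from 33541462 to 44080203 counts in blood, 47443744 to 64194409 in tumor, 30239560 to 47447640 in sorted cells and 46326931 to 138479656 in lymph node. A pair of libraries stood apart from their labels and are left out here. The tumor library of ATOR-4066 sample 3 held 2806 counts of 8 B cell markers per 1000000, against 5.22 to 117 in the other tumor libraries, and the lymph node library of vehicle sample 3 held 4.68, against 2197 to 4265. With both put back, 0 members were called in tumor and in lymph node in any comparison by edgeR, as without them, with 3 to 10 members at an unadjusted p under 0.05 per comparison. Among the sorted libraries, ATOR-4066 sample 9 held 461 B cell marker counts per 1000000 against 10.6 to 22.9 in the others. Ptprc, which encodes CD45, read 1058 to 1745 per 1000000 in sorted cells and 34.7 to 373 in blood. Fibroblast markers summed to 4678 to 15100 CPM in whole tumor against 392 to 1664 in lymph node. The 6 epithelial markers summed to 3.94 to 342 CPM in whole tumor and 18.6 to 391 in lymph node, so they did not set the tumor apart.

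The globin genes sit in pairs of near-identical copies, and this limits what the counts of each copy say. Hba-a1 (chr11:32283511-32284465) and Hba-a2 (chr11:32296489-32297298) have coding sequences of 426 bases that differ at 1 base, C381T, and Hbb-bs (chr7:103826534-103828096) and Hbb-bt (chr7:103812524-103813996) have coding sequences of 441 bases that also differ at 1 base, C417T (GENCODE vM21, GRCm38, positions counted from the A of the start codon, first-named gene first). The end of the coding sequence around each of these bases is printed here 5′ to 3′ on the coding strand, with the differing base in capitals, because it is the only place in the coding sequence where a read can tell the copies of a pair apart. The stretches lie at chr11:32284313-32284373 and chr11:32297130-32297190 on the + strand and chr7:103826668-103826722 and chr7:103812659-103812713 on the - strand.
Hba-a1: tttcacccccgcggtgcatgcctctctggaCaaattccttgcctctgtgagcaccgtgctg
Hba-a2: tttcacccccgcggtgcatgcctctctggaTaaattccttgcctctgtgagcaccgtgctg
Hbb-bs: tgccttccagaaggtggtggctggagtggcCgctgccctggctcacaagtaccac
Hbb-bt: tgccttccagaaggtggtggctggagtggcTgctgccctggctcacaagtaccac
Of the 31-base runs in the Hba-a2 transcript 91% also occur in Hba-a1, and of those in Hbb-bt 59.4% also occur in Hbb-bs, so the rest of the information that separates the copies lies in untranslated sequence. The split of reads within a pair is therefore an estimate, and sums over a pair are firmer than either member.

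The promoters of 30 of the 39 members are in the RefSeq promoter table (GRCm38.p6), and the 250 bases before the RefSeq start were searched on both strands for short motifs of erythroid factors. AGATAA, a site form bound by GATA factors, occurred in 9 of the 30 members (30%) and in 11.4% of all 27025 genes of the table. The CACCC core, bound by KLF1 and other factors of its family, occurred in 23 members (76.7%) against 54.5% of genes, and CCAAT in 18 (60%) against 37.5%. CCACACCC, which contains the CACCC core, was found in 2 members (6.67% against 3.68%), the E-box CAGATG in 4 (13.3% against 16.3%) and TATAAA in 4 (13.3% against 14.3%). These are matches of letters and not measured binding. The windows of the beta globin pair are shown because the balance of these copies differed between libraries, that of Alas2 because it was the most abundant of the other members per length, and that of Kel because it was among the members with the largest change in blood. They lie at chr7:103827929-103828178 (-), chr7:103813924-103814173 (-), chrX:150547167-150547416 (+) and chr6:41704326-41704575 (-), and capitals mark the AGATAA form, the CACCC core, the CCAAT box and the TATAAA form on either strand.
Hbb-bs: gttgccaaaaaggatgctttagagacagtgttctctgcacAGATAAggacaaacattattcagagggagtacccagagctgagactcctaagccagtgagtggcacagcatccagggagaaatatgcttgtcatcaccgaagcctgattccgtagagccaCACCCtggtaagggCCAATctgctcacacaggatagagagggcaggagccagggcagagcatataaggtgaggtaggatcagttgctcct
Hbb-bt: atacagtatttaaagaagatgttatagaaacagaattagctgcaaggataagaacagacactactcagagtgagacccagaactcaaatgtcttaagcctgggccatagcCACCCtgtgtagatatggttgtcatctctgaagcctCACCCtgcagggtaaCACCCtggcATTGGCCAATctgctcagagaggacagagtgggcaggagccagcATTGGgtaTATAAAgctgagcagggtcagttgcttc
Alas2: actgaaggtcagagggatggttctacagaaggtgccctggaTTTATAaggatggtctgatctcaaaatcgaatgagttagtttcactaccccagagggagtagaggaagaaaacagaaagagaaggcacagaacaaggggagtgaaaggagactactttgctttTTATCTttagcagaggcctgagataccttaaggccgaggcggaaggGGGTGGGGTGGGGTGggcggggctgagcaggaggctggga
Kel: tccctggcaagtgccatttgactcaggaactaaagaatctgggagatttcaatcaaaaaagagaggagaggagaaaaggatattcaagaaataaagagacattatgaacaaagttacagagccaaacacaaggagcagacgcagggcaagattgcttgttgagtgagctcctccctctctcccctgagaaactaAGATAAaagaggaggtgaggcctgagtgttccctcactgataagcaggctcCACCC
Hbb-bs has an AGATAA 210 to 205 bases before its start that the Hbb-bt window lacks, Hbb-bt has 3 CACCC cores where Hbb-bs has 1, and Kel has AGATAA 56 to 51 bases before its start.

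In blood, the 4 globin genes took most of every library, and more of it under both treatments than under vehicle. Their share of all counts was 73.8, 75.6, 76.0, 69.8 and 74.1% in vehicle samples 1 to 5, 81.2, 78.6, 79.3, 81.0 and 77.5% in CD40 mAb samples 1 to 5, and 78.1, 88.2, 86.0 and 81.3% in ATOR-4066 samples 1, 3, 4 and 5; all values per library below follow this order. The vehicle range lay below that of each treatment, and the ATOR-4066 range, 78.1% to 88.2%, overlapped that of CD40 mAb, 77.5% to 81.2%. The mean was 73.8% ± 2.44 (SD, n = 5) with vehicle, 79.5% ± 1.59 (SD, n = 5) with CD40 mAb and 83.4% ± 4.56 (SD, n = 4) with ATOR-4066, with no test since it is a sum over members. In the bulk RNA of blood, a gain of young red cells, a gain of RNA per red cell and a loss of RNA from white cells cannot be told apart. Per length and per 1000000 transcripts, Hbb-bs led at 387100 ± 11850 TPM in vehicle blood (SD, n = 5), followed by Hba-a2 at 293600 ± 10440, Hba-a1 at 172300 ± 2784 and Hbb-bt at 68370 ± 2282, and the ranges of neighbours in this order did not overlap. Alas2, at 6413 ± 120.2 TPM, Bpgm at 1521 ± 98.6 and Mkrn1 at 546 ± 48.9 came next, also without overlap. Below them the order ran through Bnip3l (294 ± 15.6 TPM), Epb41 (206 ± 25.4), Fech (112 ± 8.72), Slc4a1 (77.7 ± 13) and Slc25a37 (68.8 ± 6.62), the ranges of the last pair overlapping, to Epor (0.187 ± 0.0826), Klf1 (0.118 ± 0.0461) and Tfr2 (0.0108 TPM) at the bottom. This order depends on the exon lengths used, 15942 bases for Epb41 and 13838 for Fech against 4439 for Mkrn1 and 3859 for Bnip3l. Per 1000000 of all counts, without length, vehicle sample 1 read 3805 for Epb41, 2668 for Mkrn1, 1749 for Fech and 1285 for Bnip3l. The other vehicle libraries had these genes in the same order.

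The balance of the globin chains, which does not depend on how a library is scaled, also differed between libraries. The ratio of alpha globin to beta globin counts was 0.914, 0.965, 1.02, 1.03 and 0.930 with vehicle, 0.842, 0.780, 0.800, 0.719 and 0.831 with CD40 mAb, and 0.873, 0.443, 0.502 and 0.930 with ATOR-4066. All 5 CD40 mAb values lay below all 5 vehicle values, whereas ATOR-4066 samples 3 and 4 were the lowest of the 14 libraries, ATOR-4066 sample 1 lay between the CD40 mAb and vehicle ranges, and sample 5 within that of vehicle. The ratio of Hbb-bt to Hbb-bs counts was 0.161, 0.156, 0.167, 0.161 and 0.164 with vehicle, 0.167, 0.164, 0.165, 0.149 and 0.189 with CD40 mAb, and 0.171, 0.103, 0.112 and 0.127 with ATOR-4066. ATOR-4066 samples 3, 4 and 5 were the lowest of the 14 here. Hbb-bs alone made up 35.6, 55.4, 51.5 and 37.4% of the ATOR-4066 libraries, against 33.2, 33.3, 32.2, 29.6 and 33.0% of the vehicle libraries and 37.8, 37.95, 37.8, 41.0 and 35.6% of the CD40 mAb libraries. ATOR-4066 samples 3 and 4 were again the high pair. The alpha globin pair together took 36.4, 27.1, 28.8 and 39.2% with ATOR-4066, 35.2, 37.1, 38.4, 35.5 and 35.7% with vehicle, and 37.1, 34.4, 35.2, 33.9 and 35.1% with CD40 mAb. Hba-a1 to Hba-a2, by contrast, stayed between 0.694 and 0.752 in all 14 libraries.

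**Figure D1:**
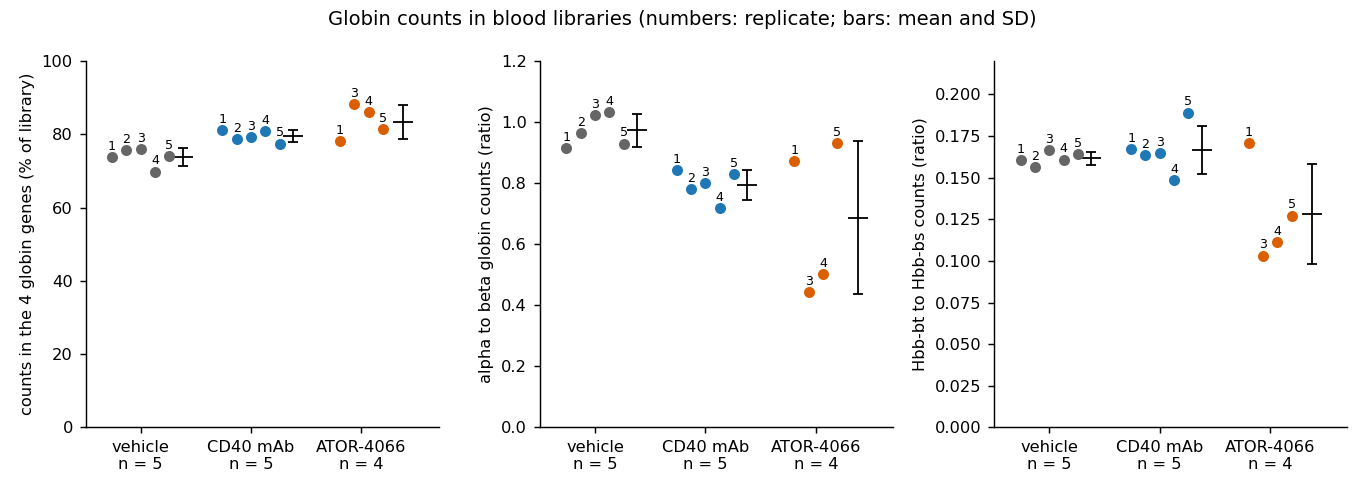
Globin counts in the 14 blood libraries, as the share of all counts in the 4 globin genes (left), the ratio of alpha to beta globin counts (middle) and the ratio of Hbb-bt to Hbb-bs counts (right); points are libraries with their replicate number, bars the mean and SD of a group. The vehicle shares, 69.8% to 76.0%, lie below those of both treatments, and ATOR-4066 samples 3 and 4 have the lowest alpha to beta ratios, 0.443 and 0.502.

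Whether the erythroid genes rose with CD40 mAb was asked first in blood. All 38 members tested were higher with CD40 mAb than with vehicle (edgeR, adjusted p under 0.05), where 34.6% of the 12184 genes tested were called and 22.2% were called higher. The median log2 change of the members was 2.48 beside -0.05 over all genes, the smallest being 0.82 for Slc25a38 and the largest 4.70 for Rhag. Tfr2, the second transferrin receptor, had 0 to 5 counts per library and was not tested. The count of 38 was the same with each library left out in turn and with DESeq2. Levels here are counts per 1000000 of a library size scaled by TMM, which sets the bulk of the genes equal between libraries. The TMM factors were 1.65 to 2.35 with vehicle, 0.314 to 0.981 with CD40 mAb and 0.623 to 1.19 with ATOR-4066, so a globin gene can exceed 1000000 on this scale.

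The size and, for 8 members, the sign of this change depended on what the libraries were scaled to. With plain library totals the median of all genes fell by 1.83 and 22 members were higher and 1 lower, where 2.61% of genes were called higher, 87.4% lower and 90.1% in either direction. With globin left out of the totals and no TMM factors the median of all genes was -1.45 and 30 members were higher and 1 lower (4.12% of genes higher, 82% lower, 86.2% in either direction), and with globin left out but TMM factors kept it was 38 higher (21.7% of genes higher). The distance from the median of all genes to the members' median stood at 2.31 with plain totals, 2.27 with totals without globin, 2.53 without globin with TMM, and 2.54 in the fit given above. Aqp1, Epor, Hba-a1, Hba-a2, Ppox, Slc25a38, Sptb and Tal1 were negative under at least 1 of the 6 scalings, and the other 30 tested members were positive under all 6. With alpha globin counts as the library size, 2.94% of genes were called higher and 87.7% lower.

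**Figure D2:**
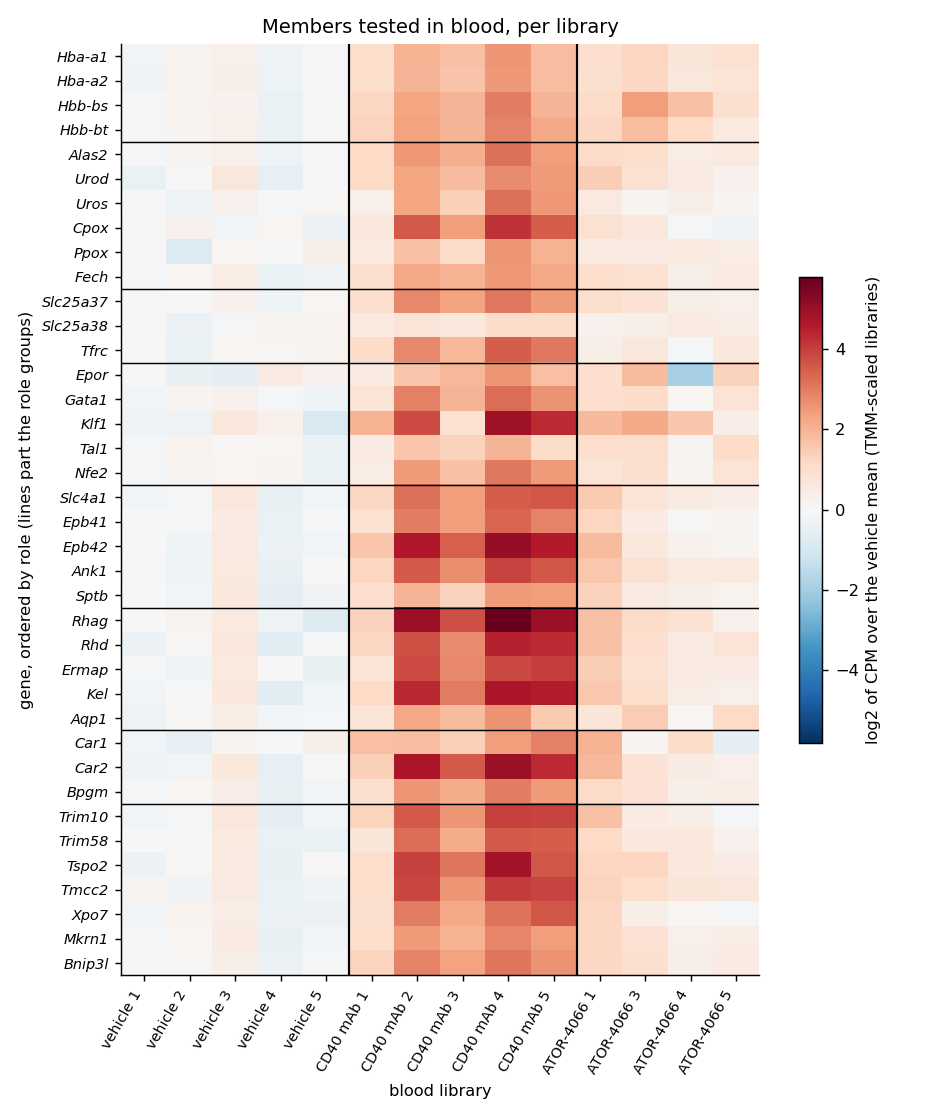
Level of each of the 38 tested members in each blood library, as log2 of its CPM over the vehicle mean on TMM-scaled libraries; rows are genes by role, columns are libraries by treatment. CD40 mAb samples 2, 3, 4 and 5 are high across the rows and CD40 mAb sample 1 less so; Aqp1, Epor, Hba-a1, Hba-a2, Ppox, Slc25a38, Sptb and Tal1 change sign against vehicle under at least 1 other scaling.

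Among the globin chains, all 4 were higher with CD40 mAb on the TMM scale, with Hba-a1 and Hba-a2 near 0 or below under plain totals (log2 change -0.03 and -0.06). Per 1000000 of all counts, Hba-a1 read 149600, 155100, 157300, 147300 and 148900 with vehicle, 153800, 147200, 147300, 144900 and 147500 with CD40 mAb, and 153900, 114700, 121200 and 168200 with ATOR-4066. Hba-a2 read 202800, 216200, 226800, 207700 and 208000 with vehicle, 217500, 197300, 205200, 193800 and 204000 with CD40 mAb, and 209900, 155900, 166600 and 223800 with ATOR-4066. The groups overlapped for both alpha genes, and ATOR-4066 samples 3 and 4 were lowest. Hbb-bs read 332100, 332700, 321900, 295800 and 329700 with vehicle, 377500, 379500, 378000, 410300 and 355900 with CD40 mAb, and 356000, 553900, 515100 and 373900 with ATOR-4066. Hbb-bt read 53300, 52010, 53640, 47570 and 54100 with vehicle, 63170, 62100, 62300, 60970 and 67300 with CD40 mAb, and 60860, 57160, 57440 and 47560 with ATOR-4066. For both beta genes all CD40 mAb libraries lay above all vehicle libraries. On the TMM scale the log2 change with CD40 mAb was 1.90 ± 0.39 (SE, adjusted p = 0.00157) for Hba-a1, 1.86 ± 0.40 for Hba-a2, 2.20 ± 0.47 for Hbb-bs and 2.22 ± 0.40 (SE, adjusted p = 0.00054) for Hbb-bt.

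All 6 enzymes of heme synthesis were called higher with CD40 mAb on the TMM scale, with log2 changes of 1.73 to 3.25. Ppox was the one of the 6 that turned negative under other scalings, 3 of the 6. Alas2 (chrX:150547375-150570638, GENCODE vM21 on GRCm38, as are the positions of the other genes), the rate-limiting enzyme of erythroid heme synthesis, read 8003, 9614, 10420, 6884 and 7809 CPM with vehicle, 19000, 49460, 36380, 79100 and 45230 with CD40 mAb, and 18440, 17340, 11510 and 12460 with ATOR-4066. No vehicle library reached the lowest CD40 mAb or ATOR-4066 library, and the CD40 mAb group ran from 19000 in sample 1 to 79100 in sample 4. Its log2 change was 2.42 ± 0.40 (SE, adjusted p = 0.00025) with CD40 mAb, and with ATOR-4066, where it was not called, 0.81 ± 0.40 (SE, adjusted p = 0.356). Urod (chr4:116989965-116994413), uroporphyrinogen decarboxylase, read 11.7, 15.6, 24.1, 11.2 and 14.3 CPM with vehicle, 34.8, 74.1, 54.7, 102 and 84.3 with CD40 mAb, and 40.9, 28.7, 21.5 and 18.1 with ATOR-4066. CD40 mAb lay above vehicle in all libraries, while ATOR-4066 samples 4 and 5 lay inside the vehicle range. The log2 change of Urod was 2.18 ± 0.31 (SE, adjusted p = 0.00011) with CD40 mAb. Fech, ferrochelatase, which puts iron into the ring, read 821, 925, 1168, 666 and 756 CPM with vehicle, 1657, 4048, 3471, 4888 and 4025 with CD40 mAb, and 1764, 1594, 1083 and 1231 with ATOR-4066, and changed by 2.06 ± 0.32 (SE, adjusted p = 0.00018) with CD40 mAb. ATOR-4066 sample 4 lay within the vehicle range of Fech. Cpox (chr16:58670292-58717636), coproporphyrinogen oxidase, changed most of the enzymes, by 3.25 ± 0.50 (SE, adjusted p = 0.00035).

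Iron and import genes rose with CD40 mAb as well, 3 of 3 tested, with Slc25a38 turning negative under 4 of the 6 scalings. Tfrc (chr16:32608920-32632794) read 4.24, 3.33, 4.72, 4.57 and 4.95 CPM with vehicle, 9.12, 29.9, 16.6, 50.5 and 36.7 with CD40 mAb, and 5.49, 6.96, 4.11 and 6.61 with ATOR-4066. Every CD40 mAb library was above every vehicle library, and ATOR-4066 overlapped vehicle. The log2 change of Tfrc was 2.70 ± 0.36 (SE, adjusted p = 0.00012) with CD40 mAb. Slc25a37 (chr14:69241848-69285112), or mitoferrin-1, which carries iron into erythroid mitochondria, read 209.8, 228, 271, 188 and 243 CPM with vehicle, 442, 1571, 1160, 1879 and 1265 with CD40 mAb, and 466.5, 414, 289 and 276 with ATOR-4066. CD40 mAb and ATOR-4066 both lay above vehicle, and CD40 mAb sample 1 lay inside the ATOR-4066 range. Slc25a37 changed by 2.47 ± 0.34 (SE, adjusted p = 0.0001), and Slc25a38, the glycine carrier of mitochondria, by 0.82 ± 0.14 (SE, adjusted p = 0.00029).

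The 5 genes of the receptor and transcription factor group were called higher with CD40 mAb on the TMM scale, with Epor and Tal1 negative under 3 and 4 of the 6 scalings. Gata1 (chrX:7959260-7978071) read 2.68, 3.39, 3.63, 2.85 and 2.497 CPM with vehicle, 5.14, 22.7, 11.8, 28.1 and 18.2 with CD40 mAb, and 5.98, 6.23, 3.29 and 5.22 with ATOR-4066. CD40 mAb sample 1 lay among the ATOR-4066 libraries, the other CD40 mAb libraries above all others, and ATOR-4066 sample 4 within the vehicle range. Gata1 changed by 2.501 ± 0.35 (SE, adjusted p = 0.00015). Klf1 (chr8:84901928-84905291) had few counts, 8, 5, 9, 10 and 4 with vehicle, 13, 26, 4, 36 and 36 with CD40 mAb, and 15, 10, 12 and 6 with ATOR-4066. On the TMM scale these were 0.0852, 0.0807, 0.153, 0.121 and 0.0543 CPM with vehicle, 0.395, 1.38, 0.182, 2.98 and 1.96 with CD40 mAb, and 0.361, 0.458, 0.306 and 0.128 with ATOR-4066. The CD40 mAb group spread widely, samples 1 and 3 being inside the ATOR-4066 range, and all its libraries lay above the vehicle libraries on this scale. The log2 change of Klf1, 3.69 ± 0.61 (SE, adjusted p = 0.00034) with CD40 mAb, rests on 4 to 36 counts per library. Nfe2 (chr15:103248212-103258403), the erythroid and megakaryocytic subunit of NF-E2, read 13.9, 16.4, 16.3, 16.4 and 11.4 CPM with vehicle, 20.3, 82.7, 47.96, 122 and 83.1 with CD40 mAb, and 24.6, 28.7, 16.4 and 25.5 with ATOR-4066. All CD40 mAb libraries were above all vehicle libraries, and ATOR-4066 sample 4 touched the top of the vehicle range. Nfe2 changed by 2.26 ± 0.35 (SE, adjusted p = 0.00021), and Tal1 and Epor changed by 1.37 ± 0.24 and 1.69 ± 0.47.

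Band 3 and the membrane skeleton were called in 5 of 5 with CD40 mAb, at log2 changes of 1.94 to 4.29 where the globins had 1.86 to 2.22, with Sptb alone slightly negative relative to globin counts (log2 -0.07). Slc4a1 (chr11:102348824-102366203), the anion exchanger band 3, read 194, 198, 324, 156 and 193 CPM with vehicle, 493.2, 1955, 1136, 2412 and 2614 with CD40 mAb, and 605, 363, 306 and 281 with ATOR-4066. Vehicle sample 3 stood above the rest of its group and inside the ATOR-4066 range, and no CD40 mAb library overlapped vehicle. Slc4a1 changed by 3.02 ± 0.42 (SE, adjusted p = 0.0001). Epb42 (chr2:121017891-121037072), which binds band 3 on its inner side, read 16.3, 13.9, 23.7, 12.8 and 14.8 CPM with vehicle, 48.9, 405, 181, 563 and 398 with CD40 mAb, and 58.6, 25.0, 19.7 and 18.1 with ATOR-4066. CD40 mAb sample 1 lay below ATOR-4066 sample 1, and the other CD40 mAb libraries lay above all others. Ank1 (chr8:22974844-23150497), the ankyrin that ties spectrin to band 3, read 19.4, 17.1, 30.4, 15.3 and 20.5 CPM with vehicle, 48.1, 241, 133, 313 and 251 with CD40 mAb, and 60.7, 37.5, 30.8 and 30.3 with ATOR-4066. The pattern was the same, with CD40 mAb sample 1 below ATOR-4066 sample 1. The log2 changes were 4.29 ± 0.56 (SE, adjusted p = 0.0001) for Epb42 and 3.26 ± 0.41 (SE, adjusted p = 0.0001) for Ank1, against 2.72 ± 0.43 for Epb41 and 1.94 ± 0.32 for Sptb.

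Among the blood group and surface proteins, 5 of 5 were called higher with CD40 mAb, and Aqp1 was the one to turn negative under another scaling, 2 of the 6. Rhag (chr17:40811126-40840754), an ammonium channel that forms a complex with the Rh proteins, read 0.522, 0.597, 0.767, 0.436 and 0.298 CPM with vehicle, 1.34, 16.4, 7.04, 27.7 and 16.6 with CD40 mAb, and 1.69, 1.15, 0.970 and 0.618 with ATOR-4066. CD40 mAb samples 2 to 5 were at 7.04 or more and every other library at 1.69 or less. Rhag changed by 4.70 ± 0.65 (SE, adjusted p = 0.00018), on 22 to 335 counts per library. Kel (chr6:41686330-41704339), the Kell blood group antigen, read 4.95, 5.52, 8.44, 3.61 and 4.91 CPM with vehicle, 12.2, 115, 44.2, 144 and 129 with CD40 mAb, and 15.98, 11.1, 7.37 and 6.802 with ATOR-4066. CD40 mAb sample 1 was again inside the ATOR-4066 range, and the rest of that group stood apart. Kel changed by 4.02 ± 0.56 (SE, adjusted p = 0.00015), Rhd by 3.67 ± 0.53, Ermap by 3.38 ± 0.48 and Aqp1, a water channel, by 1.93 ± 0.32. Car2 (chr3:14886273-14900770), a carbonic anhydrase, read 44.7, 47.4, 80.6, 38.1 and 51.5 CPM with vehicle, 137, 1348, 608, 1677 and 1045 with CD40 mAb, and 194, 94.5, 74.0 and 64.1 with ATOR-4066. Its CD40 mAb sample 1 lay below ATOR-4066 sample 1, as for Epb42. Bpgm (chr6:34476207-34505613), which makes the bisphosphoglycerate that lowers the oxygen affinity of haemoglobin, read 2926, 3281, 3975, 2281 and 2741 CPM with vehicle, 5865, 17710, 13380, 23850 and 16620 with CD40 mAb, and 6630, 5440, 3856 and 4053 with ATOR-4066. Every CD40 mAb library of Car2 and Bpgm was above every vehicle library. Car2 changed by 4.20 ± 0.56 (SE, adjusted p = 0.0001), Bpgm by 2.35 ± 0.38 (SE, adjusted p = 0.00023) and Car1, on 6 to 41 counts per library, by 2.11 ± 0.40 (SE, adjusted p = 0.00083).

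All 7 genes of terminal maturation were called higher with CD40 mAb and were positive under all 6 scalings. Tmcc2 (chr1:132356315-132391281) read 36.2, 28.4, 46.9, 25.0 and 27.1 CPM with vehicle, 66.8, 482, 191, 547 and 494 with CD40 mAb, and 80.9, 67.3, 52.8 and 52.3 with ATOR-4066. Bnip3l (chr14:66985239-67008877), which marks mitochondria for removal in reticulocytes, read 603, 666, 804, 496 and 579 CPM with vehicle, 1554, 4586, 3185, 5411 and 3863 with CD40 mAb, and 1463, 1190, 806 and 888 with ATOR-4066. For both, CD40 mAb samples 2 to 5 lay above every other library and sample 1 lay near ATOR-4066 sample 1. The log2 change was 3.44 ± 0.46 (SE, adjusted p = 0.0001) for Tmcc2 and 2.56 ± 0.35 (SE, adjusted p = 0.0001) for Bnip3l. Tspo2 changed by 3.74 ± 0.51, Trim10 by 3.34 ± 0.49, Trim58, a ubiquitin ligase that acts before the nucleus is lost, by 2.93 ± 0.45, Xpo7, a nuclear exportin, by 2.83 ± 0.41 and Mkrn1 by 2.27 ± 0.36.

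To see which members changed more than globin itself, the sum of the 4 globin counts was used as the library size. The 4 globin genes make up this size, so by construction they cannot all move the same way on it. Relative to globin, 17 members were higher and 2 lower with CD40 mAb than with vehicle, where 2.15% of all genes were called higher and 88.5% lower. The 17 were Ank1, Bnip3l, Car2, Cpox, Epb41, Epb42, Ermap, Kel, Klf1, Rhag, Rhd, Slc4a1, Tmcc2, Trim10, Trim58, Tspo2 and Xpo7, and these were called higher under all 6 scalings. By role they were 4 of 5 skeleton genes, 4 of 5 surface proteins, 6 of 7 maturation genes, Car2, Klf1 and Cpox, and 0 of 3 iron and import genes. The 2 lower were Slc25a38, by -1.14 ± 0.33 (SE, adjusted p = 0.00124), and Tal1, by -0.69 ± 0.31 (SE, adjusted p = 0.0337). Per 1000000 globin counts, Rhag stood at 1.37 ± 0.313 (SD, n = 5) with vehicle, 7.81 ± 4.25 (SD, n = 5) with CD40 mAb and 1.24 ± 0.627 (SD, n = 4) with ATOR-4066. Epb42 stood at 43.1 ± 7.29, 186 ± 88.6 and 35.3 ± 26.8 in the same order, and Kel at 14.3 ± 2.43, 52.5 ± 29.6 and 11.6 ± 5.99. CD40 mAb sample 1, at 1.62 for Rhag, 59.1 for Epb42 and 14.8 for Kel, was close to the vehicle libraries, and the other CD40 mAb libraries were at 5.26, 135 and 33.0 or more. The log2 changes relative to globin were 2.504 ± 0.39 (SE, adjusted p = 8.5e-08) for Rhag, 2.11 ± 0.37 (SE, adjusted p = 7.9e-06) for Epb42, 2.03 ± 0.37 (SE, adjusted p = 2.2e-05) for Car2 and 1.88 ± 0.34 (SE, adjusted p = 1.7e-06) for Kel. Between 14 and 21 members were called when each library was left out in turn, and the call of Bnip3l was lost without vehicle sample 1, 2, 4 or 5 or CD40 mAb sample 2, 3 or 5 (adjusted p 0.0516 to 0.0908).

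Of the 6 heme enzymes, 1 was called relative to globin, Cpox, at a log2 change of 1.04. Alas2 stood at 22630 ± 507 per 1000000 globin counts (SD, n = 5) with vehicle and 28380 ± 3472 (SD, n = 5) with CD40 mAb, a log2 change of 0.33 ± 0.19 (SE, adjusted p = 0.0897). The vehicle libraries, at 23110, 22150, 22640, 23150 and 22090, were close together, and the CD40 mAb libraries, at 22940, 29430, 27180, 30650 and 31690, were above them in samples 2 to 5. Fech stood at 2284 ± 171 and 2344 ± 392 with overlapping groups, a log2 change of 0.04 ± 0.22 (SE, adjusted p = 0.873). Tfrc, Gata1 and Nfe2 had log2 values relative to globin of 0.54, 0.38 and 0.10, none of them called.

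**Figure D3:**
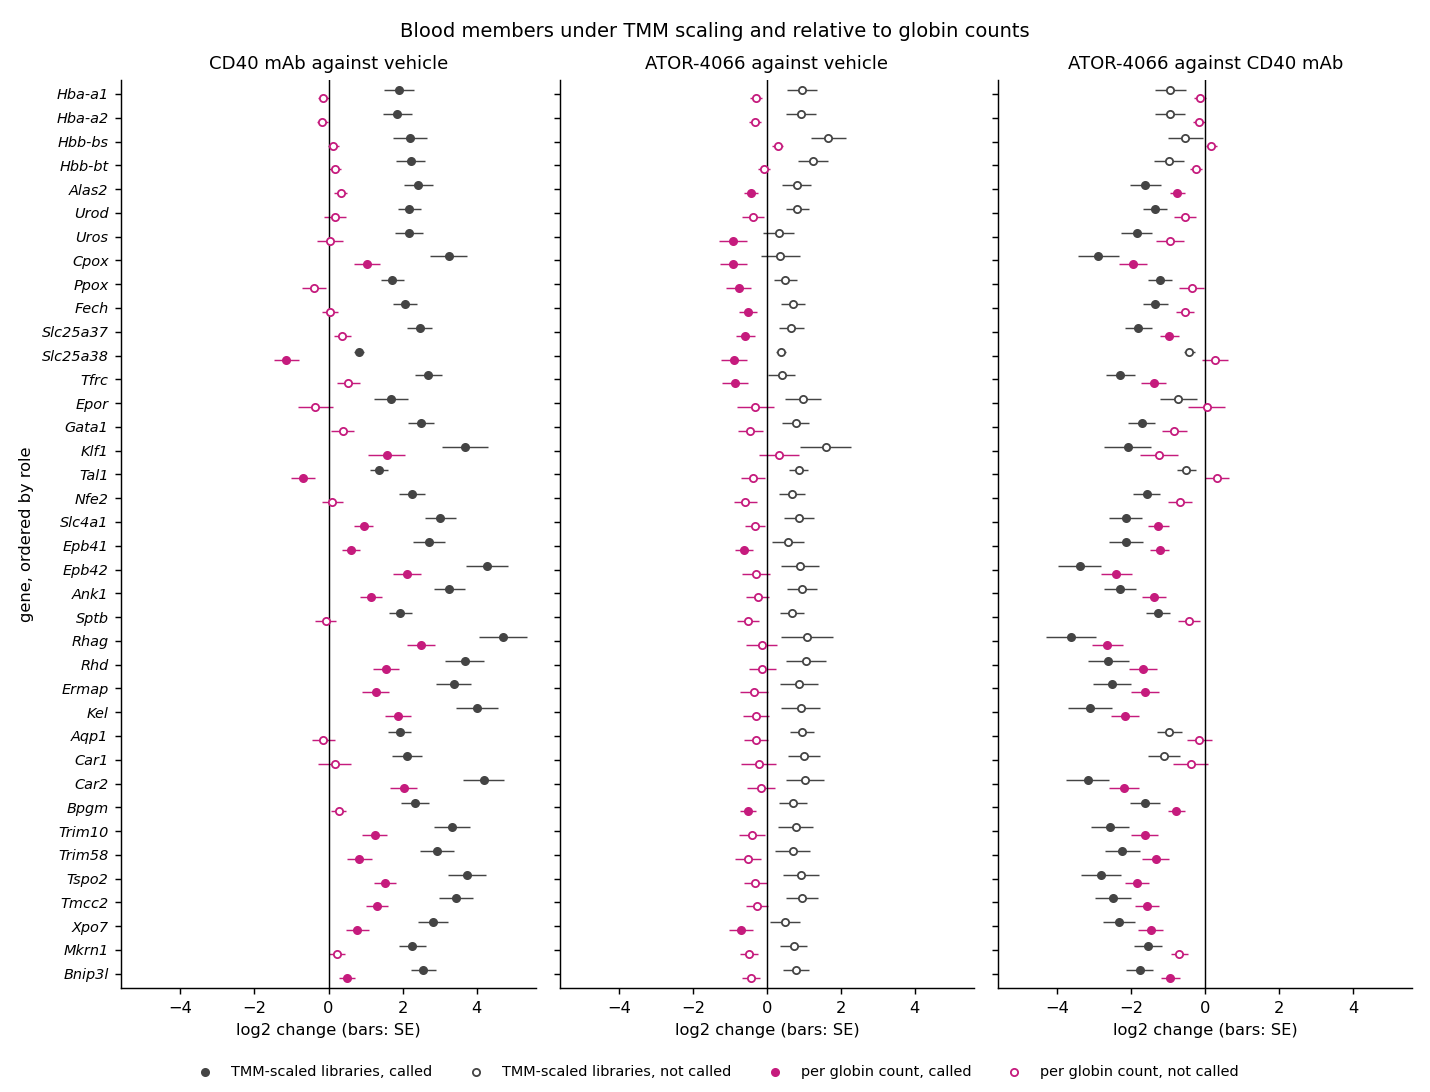
Log2 change of the 38 tested members in blood in the 3 comparisons, with bars for the SE; grey marks TMM-scaled libraries, magenta the globin counts as library size, filled marks genes called at an adjusted p under 0.05. With CD40 mAb 38 members are called on the grey scale and 19 on the magenta scale, where Hba-a1, Hba-a2, Ppox, Slc25a38, Epor, Tal1, Sptb and Aqp1 are negative; with ATOR-4066 against vehicle the grey values are all positive and 36 of 38 magenta values negative.

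With ATOR-4066, 0 of 38 members were called against vehicle by edgeR, where 0.435% of genes were called and 0.0246% lower. An unadjusted p under 0.05 was found for 15 members and for 1831 of the 12184 genes tested. DESeq2 called 5 members, all higher. For this and every other DESeq2 count, the share of all genes called is not given here, so no excess among the members can be read from it. On the TMM scale all 38 log2 changes were positive, with a median of 0.84 beside -0.01 over all genes, and 36 of the 38 turned negative under at least 1 other scaling. Hbb-bs had the largest, 1.66 ± 0.48 (SE, adjusted p = 0.126), followed by Klf1 at 1.59 ± 0.69 (SE, adjusted p = 0.292) and Hbb-bt at 1.24 ± 0.41 (SE, adjusted p = 0.174). Uros had the smallest, 0.32 ± 0.41 (SE, adjusted p = 0.764). With plain totals, Hbb-bs was called higher and Tfrc and Uros lower, by 0.48, -0.69 and -0.75, where 0.0903% of genes were called higher, 75.2% lower and 75.3% in either direction.

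Relative to globin counts, 0 members were higher and 11 lower with ATOR-4066 than with vehicle, where 0.0246% of genes were higher and 82.6% lower. The 11 were Alas2, Bpgm, Cpox, Epb41, Fech, Ppox, Slc25a37, Slc25a38, Tfrc, Uros and Xpo7. They include 5 of 6 heme enzymes and 3 of 3 import genes, to be read beside the 82.6% of all genes called lower. Alas2 per 1000000 globin counts read 23680, 12260, 12890 and 18240 in ATOR-4066 samples 1, 3, 4 and 5, and Tfrc read 7.05, 4.92, 4.60 and 9.67, against 12.2, 7.66, 10.3, 15.4 and 14.0 with vehicle. ATOR-4066 sample 1 lay above the vehicle range for Alas2 and below it for Tfrc. Samples 3 and 4, the libraries with the highest Hbb-bs share, were the lowest for both genes. The calls rested on these samples: 0 members were called by edgeR without sample 3, 1 without sample 4 and 0 without both, and 22 without sample 1. Vehicle libraries moved the count too, to 5, 6, 3 and 6 without vehicle samples 1, 3, 4 and 5. With alpha globin counts alone as the library size, 1 member was higher, Hbb-bs, and 0 lower, where 69% of genes were called lower and 69.1% in either direction.

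Between the antibodies, members were lower with ATOR-4066 than with CD40 mAb. Of 38 tested, 29 were called lower and 0 higher, where 13.1% of genes were called and 10.8% lower, and the median log2 change was -1.79 beside 0.01 over all genes. The 9 not called were the 4 globins, Slc25a38, Epor, Tal1, Aqp1 and Car1, and of these all but Car1, with Ppox, turned positive under at least 1 other scaling. The largest log2 differences, with their SE, were in Rhag (-3.62 ± 0.69, adjusted p = 0.00575), Epb42 (-3.40 ± 0.59, adjusted p = 0.00526), Car2 (-3.17 ± 0.58, adjusted p = 0.00526) and Kel (-3.11 ± 0.59, adjusted p = 0.00555). Alas2 differed by -1.62 ± 0.42 (SE, adjusted p = 0.0156; 0.0659 without ATOR-4066 sample 4 and 0.0618 without sample 5), Tfrc by -2.30 ± 0.39 (SE, adjusted p = 0.00526), Gata1 by -1.72 ± 0.38 (SE, adjusted p = 0.00822) and Slc4a1 by -2.15 ± 0.44 (SE, adjusted p = 0.00573). All 7 maturation genes were called lower, Bnip3l by -1.77 ± 0.36 and Tspo2 by -2.81 ± 0.54. Relative to globin counts 20 members were called lower, where 2.56% of genes were lower, 3.27% higher and 5.83% in either direction, and these 20 were called lower under all 6 scalings. That count was 12 without CD40 mAb sample 5 and 11 without ATOR-4066 sample 4. With totals that leave out globin and no TMM factors, 21 were lower and 4 higher, the 4 being Hba-a1, Hbb-bs, Slc25a38 and Tal1, where 71.4% of genes were called higher, 3.04% lower and 74.5% in either direction. Plain totals called 3.14% of genes lower, and globin left out with TMM factors kept called 2.63% higher. Without both ATOR-4066 samples 3 and 4, 0 members were called by edgeR and 32 had an unadjusted p under 0.05, at a median of -1.71, with 2 ATOR-4066 libraries left. Each comparison with a treatment shares its libraries with the others, so their values stand side by side and are not independent.

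Other genes of the same pathways, 60 in 2 lists of which Ahsp was not found by symbol, gave these counts in blood. Of 34 further erythroid genes, all tested, 28 were higher and 1, Bcl11a, lower with CD40 mAb than with vehicle, with a median log2 change of 2.14 on the TMM scale and 0.20 with plain totals, where 14 were higher and 10 lower. Dmtn, a protein of the membrane skeleton, changed by 2.75 ± 0.33 (SE, adjusted p = 0.0001), Ypel4 by 4.22 ± 0.53 (SE, adjusted p = 0.0001) and Lmo2, a partner of TAL1 and GATA1, by 3.07 ± 0.41 (SE, adjusted p = 0.0001). Of 21 tested genes among further heme, iron and globin genes, 12 were higher and 1, Blvra, lower, with a median of 1.34, against 4 higher and 10 lower and a median of -0.59 with plain totals. Over all genes, CD40 mAb gave 22.2% higher and 12.4% lower on the TMM scale, and 2.61% and 87.4% with plain totals. With ATOR-4066 against vehicle 0 of 34 and 0 of 21 were called by edgeR (9 and 7 at an unadjusted p under 0.05, 2 and 2 called higher by DESeq2), and the 4 of smallest p, Slc38a5, Hbq1a, Hemgn and Ypel4, had log2 values, none called, of 0.80, 0.98, 0.97 and 1.75. With ATOR-4066 against CD40 mAb 24 of 34 and 9 of 21 were lower (15 and 5 with plain totals, where 2 and 0 were higher), among them Hbq1b (-2.35 ± 0.44, adjusted p = 0.00526) and Lmo2 (-2.26 ± 0.43, adjusted p = 0.00526). Over all genes, 10.8% were lower on the TMM scale in that comparison, and 3.14% lower and 19.1% higher with plain totals.

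Markers of other blood cells moved with the same comparisons. Per 1000000 of all counts, the 8 B cell markers summed to 541 to 777 with vehicle, 35.2 to 289 with CD40 mAb and 152 to 338 with ATOR-4066, the 8 T cell markers to 101 to 155, 21.9 to 71.9 and 40.0 to 76.8, and Ptprc to 232 to 373, 34.7 to 141 and 74.2 to 156. The vehicle range did not overlap the others in any of these. The 10 platelet and megakaryocyte markers summed to 810 to 1230, 349 to 714 and 528 to 1253, and the 8 neutrophil markers to 227 to 473, 212 to 578 and 138 to 331. On the TMM scale, with CD40 mAb against vehicle, 8 of 8 neutrophil, 9 of 10 platelet and 4 of 6 tested proliferation markers were called higher and 7 of 8 B cell markers lower, while 0 of 8 T cell markers were called by edgeR or DESeq2 or had an unadjusted p under 0.05. With plain totals, 2 of 8 neutrophil and 0 of 10 platelet markers were higher, 7 platelet markers lower, and all 8 T cell and all 8 B cell markers lower. Over all genes, 22.2% were called higher and 12.4% lower on the TMM scale, and 2.61% and 87.4% with plain totals. With ATOR-4066 against vehicle, on the TMM scale, edgeR called 1 of 10 platelet markers higher and 0 of the B cell, T cell, neutrophil, monocyte and proliferation markers, of which 0, 0, 1, 0 and 2 had an unadjusted p under 0.05 and DESeq2 called 1, a proliferation marker. None of the blood cell or proliferation markers was at 0 throughout a group. The share of counts in mitochondrially encoded genes was 1.09, 1.06, 0.950, 1.22 and 1.05% with vehicle, 0.874, 0.485, 0.580, 0.398 and 0.502% with CD40 mAb, and 0.782, 0.662, 0.561 and 0.960% with ATOR-4066. Their part in the results was not tested.

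In whole tumor the globins were a trace, at 0.00441% to 0.107% of counts. Their share was 0.0143, 0.00993, 0.00498 and 0.0129% in vehicle samples 1, 2, 4 and 5, 0.0144, 0.0194, 0.0534, 0.0273 and 0.107% in CD40 mAb samples 1 to 5, and 0.00441, 0.00622, 0.0114 and 0.00716% in ATOR-4066 samples 1, 2, 4 and 5. CD40 mAb samples 3, 4 and 5 were the highest of the 13, and vehicle and ATOR-4066 overlapped. Hbb-bs read 61.4, 40.3, 24.9 and 54.8 CPM with vehicle, 76.8, 85.3, 236, 136 and 476 with CD40 mAb, and 20.2, 26.3, 64.3 and 36.1 with ATOR-4066. Hba-a2 read 39.1, 28.5, 12.3 and 37.2 CPM with vehicle, 40.4, 50.6, 139.7, 77.6 and 326 with CD40 mAb, and 10.2, 15.6, 31.1 and 18.7 with ATOR-4066. Alas2 read 1.88, 1.16, 0.598 and 1.40 CPM with vehicle, 1.199, 2.44, 9.01, 4.24 and 13.9 with CD40 mAb, and 0.322, 0.579, 0.995 and 0.612 with ATOR-4066, and the same CD40 mAb libraries were high. Of 30 members tested, 0 were called by edgeR with CD40 mAb against vehicle (0% of genes called, 9 members at an unadjusted p under 0.05, 2 called by DESeq2), 0 with ATOR-4066 against vehicle (1.32%, 8 and 6) and 0 with ATOR-4066 against CD40 mAb (0.0325%, 9 and 5). Of all 18454 genes tested, 2205, 4552 and 1879 had an unadjusted edgeR p under 0.05 in these comparisons. The log2 values of Alas2 were 2.29 ± 0.65 (SE, adjusted p = 0.412), -1.01 ± 0.66 (SE, adjusted p = 0.362) and -3.29 ± 0.69 (SE, adjusted p = 0.139) in that order, and those of Hbb-bs 2.15, -0.30 and -2.46. Without CD40 mAb sample 5, 1 member was called between the antibodies. Slc4a1 had 1 to 155 counts per tumor library with 2.86 CPM in CD40 mAb sample 3 and 1.24 in sample 5, the highest of the 13, and was not tested. Rhag and Kel were at 0 in 9 and 8 of the 13 libraries.

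Tfrc in tumor followed another order than the globins. It read 54.4, 80.0, 64.4 and 61.0 CPM with vehicle, 148, 81.6, 92.8, 196 and 67.5 with CD40 mAb, and 217, 217, 87.8 and 153 with ATOR-4066. All ATOR-4066 libraries were above all vehicle libraries, and within CD40 mAb samples 1 and 4 were highest while sample 5, with the most globin, was lowest. The log2 value was 1.38 ± 0.35 (SE, adjusted p = 0.0596) with ATOR-4066 and 0.85 ± 0.33 (SE, adjusted p = 0.412) with CD40 mAb against vehicle, neither called. The 8 proliferation markers summed to 1583 to 1899 CPM with vehicle, 448 to 1684 with CD40 mAb and 651 to 1139 with ATOR-4066, so that the ATOR-4066 range lay below that of vehicle. With ATOR-4066 against vehicle 3 of 6 tested neutrophil and 1 of 6 tested platelet markers were called higher. Of all 18454 genes tested, 169 were called higher in that comparison. The 8 neutrophil markers summed to 301 to 405 CPM with vehicle and 128 to 494 with ATOR-4066, so these ranges overlapped. The platelet and megakaryocyte markers summed to 23.41 to 30.65 and 58.7 to 164 CPM in the same order, without overlap. The part of these markers in Tfrc was not tested.

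In the sorted CD45+Ly6G- cells 1 library carried most of the globin. The share was 0.0197, 0.0361, 0.00724 and 0.0268% in vehicle samples 6, 7, 9 and 10, 0.00942, 0.0138 and 0.00790% in CD40 mAb samples 6, 7 and 10, and 0.602, 0.00361 and 0.0112% in ATOR-4066 samples 6, 9 and 10. ATOR-4066 sample 6 stood far above the other 9 libraries. Hbb-bs read 81.2, 116, 31.4 and 109 CPM with vehicle, 42.7, 69.3 and 44.3 with CD40 mAb, and 2354, 13.4 and 47.3 with ATOR-4066. Hba-a2 read 57.6, 115, 21.4 and 73.0 CPM with vehicle, 27.0, 37.8 and 21.2 with CD40 mAb, and 1860, 12.8 and 37.0 with ATOR-4066. Alas2 read 2.91, 1.60, 0.324 and 2.32 CPM with vehicle, 1.16, 1.71 and 0.550 with CD40 mAb, and 56.3, 0.239 and 1.09 with ATOR-4066, and sample 6 again stood alone. Slc4a1 had 95 counts in that library and was at 0 in 8 of the 10. Epb42, Rhag, Kel and Car1 were at 0 in all 10, and 28 members were tested. The globin log2 values with ATOR-4066 against vehicle, 2.90 to 3.25 with SEs of 1.30 to 1.34, rest on sample 6 and were not called.

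The members called in sorted cells were not the globins. With ATOR-4066 against vehicle 4 were higher (Tfrc, Epb41, Xpo7, Bnip3l) and 3 lower (Ppox, Tal1, Ermap) of 28 tested, where 11.9% of genes were called. With CD40 mAb against vehicle 1 was lower, Ppox, where 1.09% of genes were called, and with ATOR-4066 against CD40 mAb 2 were lower, Tal1 and Tmcc2, where 8.23% were. Tfrc read 22.9, 22.6, 33.2 and 22.5 CPM with vehicle, 58.2, 35.8 and 30.6 with CD40 mAb, and 59.7, 66.0 and 69.6 with ATOR-4066. Vehicle sample 9 stood above the rest of its group, the vehicle and ATOR-4066 ranges did not overlap, and CD40 mAb lay between with overlap to vehicle. Tfrc changed by 1.36 ± 0.22 (SE, adjusted p = 0.0102) with ATOR-4066. Bnip3l read 78.9, 90.6, 70.7 and 67.4 CPM with vehicle, 110.5, 88.2 and 91.3 with CD40 mAb, and 128, 122 and 138 with ATOR-4066, and changed by 0.75 ± 0.13 (SE, adjusted p = 0.0108). Each ATOR-4066 library was above all others for Bnip3l. Epb41 read 157, 181, 108 and 122 CPM with vehicle, 167, 201 and 142 with CD40 mAb, and 223, 307 and 251 with ATOR-4066, and changed by 0.87 ± 0.20 (SE, adjusted p = 0.0226). ATOR-4066 was above all other libraries here too, and the call was lost without vehicle sample 9 or 10 or ATOR-4066 sample 6 or 9 (adjusted p 0.0503 to 0.0752), while Xpo7, at 0.54 ± 0.15 (SE, adjusted p = 0.0389), overlapped with CD40 mAb.

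Of the members that fell in sorted cells, Ppox, protoporphyrinogen oxidase, read 46.6, 39.5, 53.6 and 69.3 CPM with vehicle, 23.2, 26.4 and 25.5 with CD40 mAb, and 23.7, 24.1 and 28.8 with ATOR-4066. Both treatments lay below all vehicle libraries and overlapped each other. Ppox changed by -1.03 ± 0.18 (SE, adjusted p = 0.0108) with ATOR-4066 and by -1.06 ± 0.18 (SE, adjusted p = 0.0367) with CD40 mAb, and the second call was lost without vehicle sample 6, 9 or 10 or CD40 mAb sample 6 or 10 (adjusted p 0.0736 to 0.146). Tal1 read 3.00, 3.10, 1.90 and 2.58 CPM with vehicle, 1.27, 4.64 and 2.20 with CD40 mAb, and 0.419, 0.478 and 0.948 with ATOR-4066. ATOR-4066 lay below every other library. Tal1 changed by -2.10 ± 0.53 (SE, adjusted p = 0.0318) against vehicle and -2.13 ± 0.55 (SE, adjusted p = 0.0432) against CD40 mAb, and the first call was lost without any of the 4 vehicle libraries or ATOR-4066 sample 6 or 9 (adjusted p 0.0508 to 0.114), the second without CD40 mAb sample 7 or 10 or ATOR-4066 sample 6 or 9 (adjusted p 0.101 to 0.131). Tmcc2 read 9.98, 11.8, 9.18 and 11.2 CPM with vehicle, 21.0, 14.5 and 24.2 with CD40 mAb, and 8.23, 2.70 and 7.45 with ATOR-4066. CD40 mAb was highest and ATOR-4066 lowest, with no overlap. Tmcc2 changed by -1.70 ± 0.37 (SE, adjusted p = 0.0261) between the antibodies, and without CD40 mAb sample 10 its adjusted p was 0.093. Ermap changed by -2.84 ± 0.78 (SE, adjusted p = 0.0436) with ATOR-4066 against vehicle, from 5.57 to 9.79 CPM with vehicle to 0.311 to 1.83 with ATOR-4066, with CD40 mAb at 0.866, 8.95 and 3.16. Over the libraries left out in turn, 3 to 9 members were called with ATOR-4066 against vehicle, with 3 without vehicle sample 9 or 10 or ATOR-4066 sample 6 or 9 and 4 without vehicle sample 6. Between the antibodies 0 to 3 were called, with 0 without CD40 mAb sample 10 and 1 without CD40 mAb sample 7 or ATOR-4066 sample 6 or 9.

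Cell markers moved with ATOR-4066 in the sorted cells. The 8 T cell markers summed to 649 to 996 CPM with vehicle, 303 to 644 with CD40 mAb and 1810 to 4229 with ATOR-4066, 8 of 8 called higher against vehicle. The 8 proliferation markers summed to 258 to 466.4, 294 to 441 and 584 to 1340 CPM, 8 of 8 higher, and the 8 monocyte and macrophage markers to 8621 to 11090, 10800 to 20390 and 2393 to 8607 CPM, 1 of 8 lower. The 8 B cell markers summed to 18.7 to 426 CPM with ATOR-4066, the highest being sample 9, against 15.7 to 21.1 with vehicle, 2 of 8 higher. None of the T cell, proliferation and monocyte markers was at 0 throughout a group, Cr2 of the B cell list and Ly6g of the neutrophil list were at 0 with CD40 mAb and Ngp in every group, and their part in the change of Tfrc, Bnip3l, Epb41, Xpo7, Ppox, Tal1, Ermap and Tmcc2 was not tested.

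**Figure D4:**
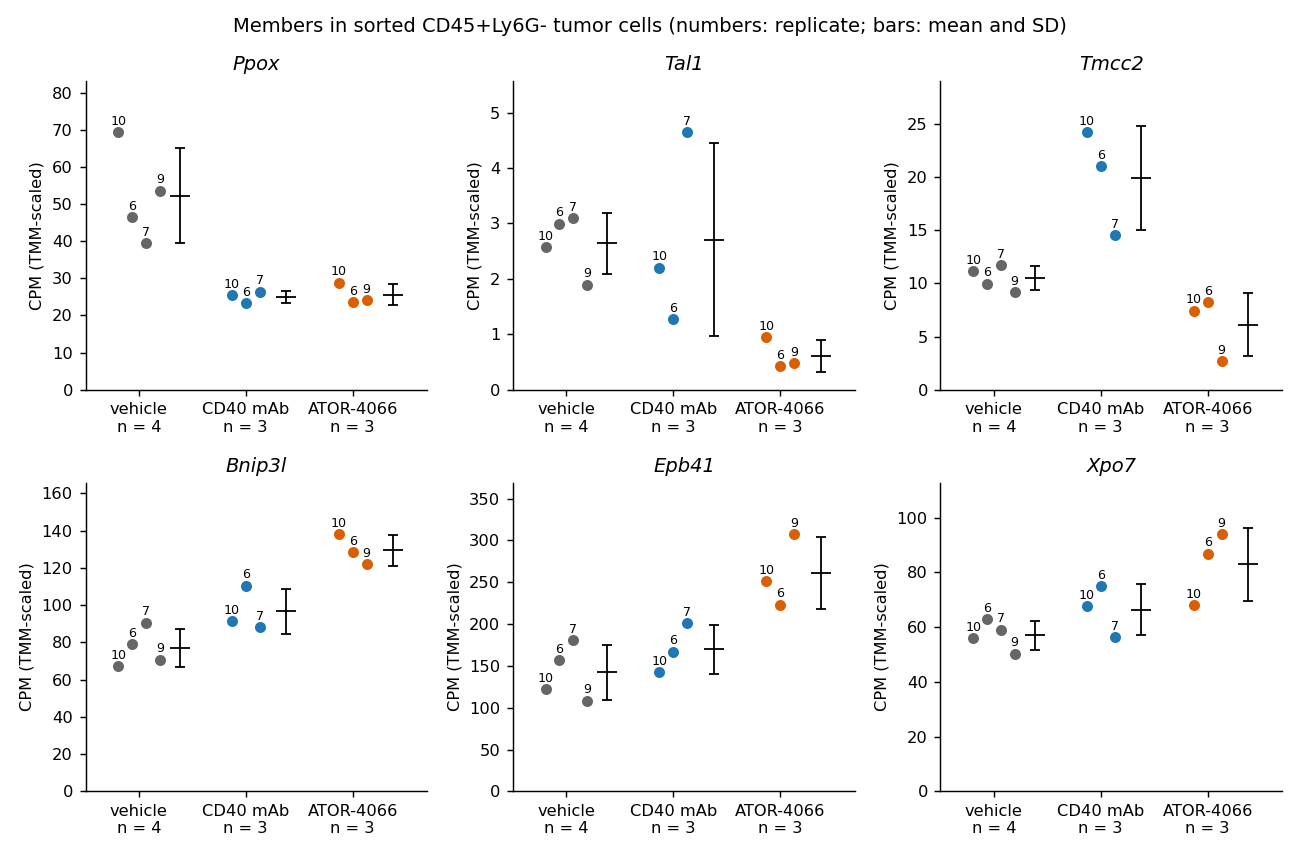
CPM on TMM-scaled libraries of 6 members called in sorted CD45+Ly6G- tumor cells; points are libraries with their replicate number, bars the mean and SD of a group. Bnip3l and Epb41 are highest in the 3 ATOR-4066 libraries, Ppox is at most 28.8 CPM under both treatments, and Tmcc2 is lowest with ATOR-4066.

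In lymph node the globin share was 0.0833, 0.0365, 0.00755 and 0.0138% in vehicle samples 1, 2, 4 and 5, 0.0113, 0.0188, 0.0499 and 0.0189% in CD40 mAb samples 2, 3, 4 and 5, and 0.0146, 0.00347, 0.0116, 0.00578 and 0.0105% in ATOR-4066 samples 1 to 5. The ATOR-4066 libraries lay between 0.00347% and 0.0146%, while vehicle samples 1 and 2 and CD40 mAb sample 4 were the highest. Hbb-bs read 389, 172, 39.8 and 67.7 CPM with vehicle, 66.3, 91.0, 243 and 89.6 with CD40 mAb, and 75.4, 19.0, 52.6, 26.6 and 52.8 with ATOR-4066. Hba-a2 read 215, 96.5, 15.3 and 34.2 CPM with vehicle, 26.4, 51.3, 129 and 43.6 with CD40 mAb, and 32.4, 7.31, 28.4, 14.4 and 25.0 with ATOR-4066. Alas2 read 9.98, 3.96, 0.820 and 1.40 CPM with vehicle, 1.75, 2.21, 7.84 and 2.90 with CD40 mAb, and 1.45, 0.543, 1.33, 0.612 and 1.25 with ATOR-4066. The 3 groups overlapped for Hbb-bs and Hba-a2, and for Alas2 vehicle overlapped both treatments while every ATOR-4066 library lay below every CD40 mAb library. Of 30 members tested, 0 were called by edgeR with CD40 mAb against vehicle (0.0643% of genes called, 5 members at an unadjusted p under 0.05, 3 called by DESeq2), 0 with ATOR-4066 against vehicle (0%, 10 and 0) and 0 with ATOR-4066 against CD40 mAb (0.0161%, 5 and 1). Of all 18671 genes tested, 4409, 2954 and 1740 had an unadjusted edgeR p under 0.05 in these comparisons. Alas2 had log2 values of -0.13 ± 0.70 (SE, adjusted p = 0.925), -1.96 ± 0.68 (SE, adjusted p = 0.24) and -1.82 ± 0.68 (SE, adjusted p = 0.429) in that order.

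Tfrc in lymph node read 51.1, 49.5, 50.3 and 43.9 CPM with vehicle, 70.2, 107, 84.8 and 68.8 with CD40 mAb, and 43.1, 58.8, 55.7, 44.1 and 46.1 with ATOR-4066. Every CD40 mAb library was above every vehicle and ATOR-4066 library. The log2 value was 0.77 ± 0.14 (SE, adjusted p = 0.0512) with CD40 mAb against vehicle, -0.74 ± 0.13 (SE, adjusted p = 0.163) with ATOR-4066 against CD40 mAb and 0.03 ± 0.13 (SE, adjusted p = 0.942) with ATOR-4066 against vehicle, none of them called. The 8 proliferation markers summed to 547 to 839 CPM with vehicle, 1070 to 1626 with CD40 mAb and 736 to 1162 with ATOR-4066. With CD40 mAb against vehicle edgeR called 0 of the 8, all 8 had an unadjusted p under 0.05 and DESeq2 called 8 higher, and their part in Tfrc was not tested.

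**Figure D5:**
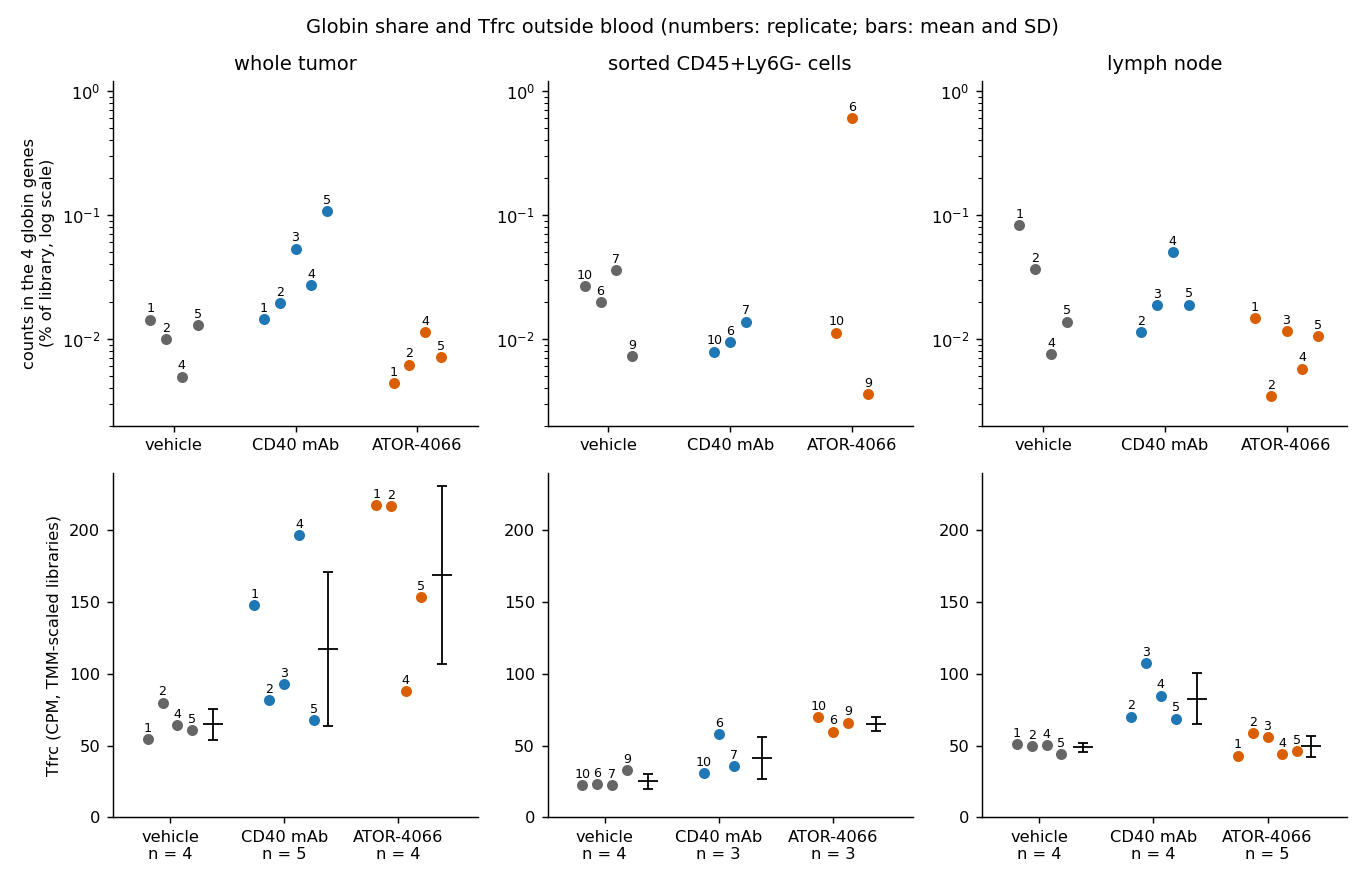
Share of counts in the 4 globin genes on a log scale (top) and Tfrc in CPM on TMM-scaled libraries (bottom) in whole tumor, sorted cells and lymph node; points are libraries with their replicate number, bars the mean and SD of a group. ATOR-4066 sample 6 of the sorted cells is at 0.602% globin, and Tfrc runs from 87.8 to 217 CPM in tumor with ATOR-4066 against 54.4 to 80.0 with vehicle.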

How the data were processed

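The authors deposited 1 table of estimated counts per gene and library. The submitters' processing notes name STAR 5.1 and GRCm38, and the labels' protocols name a stranded mRNA library kit. The deposited counts are named as merged Salmon gene counts. With which settings they were estimated, and on which annotation, was not stated there. Of the values 11% were fractional, and all were rounded. The genes and lists were chosen with earlier results of these data known.

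The 3 treatments of a material entered 1 edgeR 4.0.16 fit (R 4.3.3, quasi-likelihood test, robust, TMM factors, filterByExpr with a count minimum of 10 and a total minimum of 15). P-values were adjusted by Benjamini-Hochberg over all genes tested, with a call at an adjusted p under 0.05. TPM used GENCODE vM21 exon lengths. Alternatives were 5 other library sizes in blood, no low count filter, a replicate block, DESeq2 1.42.0, both omitted libraries put back, and leaving out each library. The fit was also run on simulated data, with settings and an outcome that are not reported here.

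Values in every blood library are given for the globin genes, Alas2, Tfrc, Gata1, Klf1, Slc4a1 and up to 2 members of smallest p per role. In the other materials they are given for the globin genes of highest count, Alas2, Tfrc and up to 4 called members of smallest p per comparison. Of the other pathway genes, up to 4 of smallest p per blood comparison are named, except for some that are not reported here. Depth limits the members with few counts in blood, such as Klf1 (4 to 36 per library), Car1 (6 to 41) and Tfr2 (0 to 5).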

Additional observations from a re-analysis of the deposited data

Results flagged for a closer look

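Among 115 sets of values tested for a library far from the rest of its group, 4 had one, where chance gives about 1 in 20, so the 4 are no more than chance gives. ATOR-4066 sample 6 of the sorted cells, at 2354 CPM for Hbb-bs with the next library of its group of 3 at 47.32, is not among them. Slc4a1 in blood was at 324.2 CPM in vehicle sample 3, the next highest vehicle library being at 197.5. Epb42 in blood was at 58.56 CPM in ATOR-4066 sample 1, the next ATOR-4066 library being at 24.97. Tfrc in sorted cells was at 33.18 CPM in vehicle sample 9, the next being at 22.92. Hbb-bs in lymph node was at 243.0 CPM in CD40 mAb sample 4, the next being at 91.03.

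Of the members given library by library in at least 1 material, 5 had log2 values of a comparison with opposite signs in different materials. In neither material did the libraries of the compared groups overlap. The differences between materials were not tested. Called by edgeR among the values of these 5 were those of Bnip3l and Tfrc in blood, of Ppox with CD40 mAb in blood and of Ppox in sorted cells, and the others were not called. Bnip3l, with CD40 mAb against vehicle, had a log2 value of 2.562 in blood and -0.3044 in lymph node, and with ATOR-4066 against CD40 mAb 0.4209 in sorted cells and -1.775 in blood. Nfe2, with ATOR-4066 against vehicle, was at 0.6772 in blood and -1.678 in sorted cells. Ppox was at 1.726 in blood and -1.059 in sorted cells with CD40 mAb against vehicle, and at 0.5028 and -1.032 with ATOR-4066 against vehicle. Tfrc, with ATOR-4066 against CD40 mAb, was at 0.6474 in sorted cells, -2.296 in blood and -0.7403 in lymph node. Tmcc2, with ATOR-4066 against vehicle, was at 0.9517 in blood and -0.7791 in sorted cells. Slc25a38 and Xpo7, not given library by library, met the same rule. Slc25a38 with CD40 mAb against vehicle was called higher in blood and was at -0.5446 in sorted cells, not called. Xpo7 with ATOR-4066 against vehicle was at -0.388 in tumor, not called, and 0.5399 in sorted cells, called. The blood values are on the TMM scale, and those of Nfe2, Ppox, Tmcc2 and Slc25a38 change sign under at least 1 other scaling.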

How the results depend on the processing

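In blood with CD40 mAb against vehicle, 38 members were called; 23 were with plain library totals and 19 with globin counts as the library size. With ATOR-4066 against vehicle the count was 0, and it became 3 with plain totals, 11 with globin counts, 1 with alpha globin counts and 5 with DESeq2. Between the antibodies 29 became 0 without ATOR-4066 samples 3 and 4, a setting added after seeing the data that leaves 2 ATOR-4066 libraries (0 also relative to globin in that comparison and 0 in ATOR-4066 against vehicle). DESeq2 called 2, 6 and 5 members in tumor (CD40 mAb against vehicle, ATOR-4066 against vehicle, ATOR-4066 against CD40 mAb) and 3 and 1 in lymph node in the first and last of these, against 0 by edgeR, and 4, 12 and 5 in sorted cells, against 1, 7 and 2. The share of all genes that DESeq2 called is not given here, so no excess among the members can be read from its counts. Without the low count filter 1 member was called between the antibodies in sorted cells and 1 with CD40 mAb in lymph node. Where no construction shows it, the cause was not tested.

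With the replicate number as a block, 0 members were called between the antibodies in blood (32 at an unadjusted p under 0.05), and in sorted cells 0 with CD40 mAb and 4 with ATOR-4066 against vehicle and 0 between the antibodies. By the rule used the numbers showed no pairing: in no comparison did every same-numbered pair correlate above 0.1, or every sample best with its own number. Some single samples did correlate best with their own number, and most did not. With so few pairs per comparison this check cannot exclude a pairing. No other count of members called changed by over 1.5 times under the block. Over all genes, the number of calls under the block was 2 against 1593 between the antibodies in blood, 6 against 53 with ATOR-4066 against vehicle there, 0 against 243 in tumor with ATOR-4066 against vehicle, and 14 against 182, 1090 against 1977 and 363 against 1372 in sorted cells. It was 0 against 6 between the antibodies in tumor, and 1 against 12 with CD40 mAb and 1 against 3 between the antibodies in lymph node. Without the filter it was 57 in tumor with ATOR-4066 against vehicle and, with CD40 mAb against vehicle, 391 in sorted cells and 171 in lymph node.

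Leaving out each library in turn gave 38 to 38, 0 to 0 and 22 to 35 members in blood in the order above, and 14 to 21, 0 to 22 and 11 to 26 relative to globin. It gave 0 to 1 in tumor between the antibodies, 0 to 1, 3 to 9 and 0 to 3 in sorted cells, and 0 in the other tumor comparisons and in lymph node. The difference in globin share ran from 4.65 to 6.19, 7.97 to 11.3 and 2.31 to 5.68 percentage points.

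Among the members given library by library, the sign changed where either value was called in these log2 values. With CD40 mAb, Hba-a1 was at -0.0344 with plain totals and -0.1405 with globin counts, and Hba-a2 at -0.06128, -0.1673 and, with alpha globin counts, -0.01135. Under globin or alpha globin counts the genes summed make up the library size, so by construction they cannot all move the same way. With ATOR-4066 against vehicle and globin counts, Alas2 was at -0.4324, Fech at -0.5119, Slc25a37 at -0.5887, Tfrc at -0.859 (plain totals -0.6902) and Bpgm at -0.5036. Between the antibodies, Hba-a1 and Hbb-bs were at 0.2432 and 0.6826 with totals without globin, and Hbb-bs at 0.4134 with alpha globin counts. Of the other single-gene values, 2200 stayed on their side of the threshold, 175 were no longer called and 42 became called. The 2200 include changes of sign among values called under neither setting.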
